A study of Rattus norvegicus with 6 samples.

Results

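The 9 genes described here encode the proteins that turn the light signal of rod photoreceptors into a change of membrane current: *Gnat1*, *Gnb1* and *Gngt1*, the alpha, beta and gamma subunits of rod transducin; *Pde6a*, *Pde6b* and *Pde6g*, the 2 catalytic subunits and the inhibitory gamma subunit of the rod cGMP phosphodiesterase; *Cnga1* and *Cngb1*, the subunits of the cGMP-gated channel; and *Slc24a1*, the sodium/calcium-potassium exchanger of the rod outer segment. They were picked by symbol, with earlier results of these data known. All 9 were found among the 28355 genes of the tables, and all 9 passed the filter on low counts, as did 13241 genes in all. Their expression was measured by RNA sequencing of the neuroretina of 14-month-old male rats of the Goto-Kakizaki (GK) strain, which becomes diabetic without obesity. The 3 spironolactone samples came from eyes given 1 intravitreal injection of 5 µL of PLGA (a degradable polymer) microspheres with 6.2 µg of spironolactone, a mineralocorticoid receptor antagonist. The 3 non-loaded samples came from rats whose injected microspheres held no drug. Both groups share strain, sex, age, the injection and the polymer, and the retinas were dissected after 2 months. Neither group is untreated or non-diabetic. Since nothing in the labels ties a sample to an animal of its own, the p-values measure spread among samples, and some of that spread may be technical.

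In a rod, light leads to the exchange of GDP for GTP on the transducin alpha subunit. The free alpha subunit relieves the phosphodiesterase of its inhibitory gamma subunits, cGMP is broken down, the cGMP-gated channels close and the cell hyperpolarises. The exchanger keeps extruding calcium, and the falling calcium level drives recovery. Most of these proteins serve the rod outer segment, the beta subunit is also used in other cells, and rods are the most numerous cells of the rat retina.

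Libraries held between 9996198 and 12589466 expected counts (estimated read counts per gene), and the 9 genes took between 2.00% and 2.18% of the counts in spironolactone libraries and between 2.40% and 2.91% in non-loaded libraries. The lowest member count in any library was 2692 (*Pde6g*), a counting error of 1.93%, which is smaller than the spread between its replicates. Defining markers fitted the labelled tissue: 8 rod markers, 4 of which are members (*Gnat1*, *Pde6a*, *Pde6b* and *Cnga1*), summed to 17882 to 19490 CPM (counts scaled to library size with TMM factors) in spironolactone and 20787 to 25625 CPM in non-loaded libraries. *Gnat1* alone made up 5487 to 6548 CPM of the spironolactone sums and 7670 to 11374 CPM of the non-loaded sums. Of the 8 rod markers, 3 were called lower (*Gnat1*, *Nr2e3* and *Rom1*) and 0 higher (edgeR, adjusted p below 0.05). *Pde6a*, *Pde6b*, *Cnga1* and *Nrl* overlapped between the groups, and *Sag* was higher in every spironolactone library than in any non-loaded one. *Gnat1* was the largest part of every sum, so the separation of the sums does not hold for each marker. For 7 Müller glia markers the sums were 5460 to 5675 CPM in spironolactone and 5514 to 5660.0 CPM in non-loaded libraries. The 6 lens markers stayed at or below 2.32 CPM in both groups, and *Mip* was listed at 0 in all 6 libraries. In bulk tissue, fewer rods and less RNA per rod cannot be told apart.

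The transducin alpha and beta subunit genes and 1 subunit gene each of the phosphodiesterase and the channel were lower with spironolactone. *Gnat1*, *Gnb1*, *Pde6g* and *Cngb1* passed the test (edgeR quasi-likelihood test, Benjamini-Hochberg adjusted p below 0.05 over all 13241 tested genes), 4 of 9 members, and 0 members were higher. Over all tested genes 0.763% were called lower, 1.87% higher and 2.64% in either direction, with 101 lower and 248 higher genes (18 and 82 on log2(TPM + 1) with limma). All 9 members had a negative log2 fold change, against 50.7% of tested genes. At an unadjusted p below 0.05, 6 of 9 members were lower, against 6.32% of tested genes. The median log2 fold change was −0.16 for the members and 0.00 for all tested genes. Spironolactone libraries lay below every non-loaded library for 5 of 9 members, against 9.46% of tested genes. The set was chosen with earlier results of these data known, so these shares describe it and test nothing. The other 5 members, *Gngt1*, *Pde6a*, *Pde6b*, *Cnga1* and *Slc24a1*, did not pass.

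**Figure D1:**
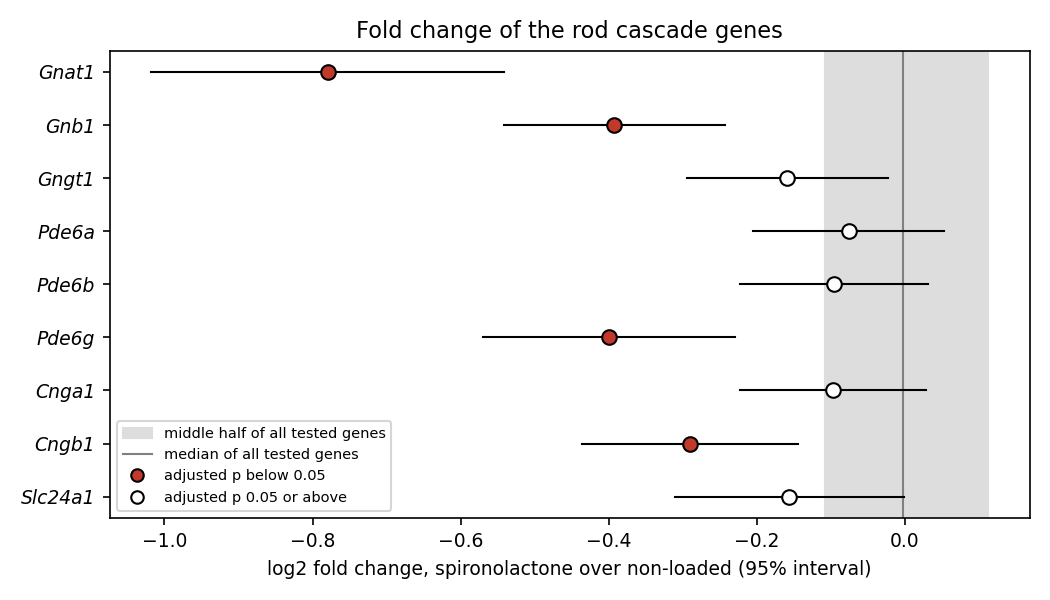
Log2 fold change of each of the 9 genes, spironolactone over non-loaded, with its 95% interval from the moderated edgeR fit of 3 libraries per group. Filled points passed an adjusted p of 0.05, the grey band spans the interquartile range of all tested genes (−0.11 to 0.11), and *Gnat1* lies farthest from it at −0.78.

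The transducin alpha subunit gene had the largest difference of the 9. *Gnat1* measured 5576, 6548 and 5487 CPM in spironolactone replicates 1, 2 and 3, against 11374, 11192 and 7670.2 CPM in non-loaded replicates 1, 2 and 3. The groups did not overlap, and non-loaded replicate 3 lay between its own group and the spironolactone libraries. The spironolactone mean was 58.2% of the non-loaded mean, a log2 fold change of −0.78 ± 0.11 (SE, n = 3 per group; edgeR, adjusted p = 0.000701; 95% interval −1.02 to −0.54). It passed without any one library (adjusted p at most 0.00908), but with robust empirical Bayes shrinkage, which widens the error of genes with unusual spread, the adjusted p was 0.161.

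Counts of *Gnat1* were fractional in all 6 libraries, the mark of reads that the authors' quantification divided between genes. The sums of the *Gnat1* and *Sema3f* counts were whole in every library (within 0.005), so these genes shared reads. *Sema3f*, a secreted semaphorin gene, adjoins *Gnat1* in the GRCr8 assembly and held between 2.38% and 2.86% of the *Gnat1* count in spironolactone and between 2.09% and 2.52% in non-loaded libraries. It had 159.6, 168 and 130.5 CPM in spironolactone and 251, 233 and 193 CPM in non-loaded libraries, and fell too (log2 fold change −0.56 ± 0.09, edgeR adjusted p = 0.00307), but how much of its count is *Gnat1* signal was not tested. With both genes added together the *Gnat1* log2 fold change was −0.77 (adjusted p = 0.000697).

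The beta subunit gene was also lower, by less than *Gnat1*. *Gnb1*, which pairs with several alpha and gamma subunits in many cell types, had 3705, 3472 and 3163 CPM in spironolactone replicates and 4599.9, 4826 and 4144 CPM in non-loaded replicates. No spironolactone library reached a non-loaded one, and the log2 fold change was −0.39 ± 0.07 (edgeR, adjusted p = 0.00528). The call was lost without spironolactone replicate 2 (adjusted p = 0.0633). *Gngt1*, the farnesylated rod gamma subunit, had 1708, 1869 and 1724 CPM in spironolactone and 1898, 2139 and 1880.2 CPM in non-loaded replicates. These groups stood apart by the gap between 1869 and 1880.2 CPM, and the difference did not pass (log2 fold change −0.16 ± 0.06, 95% interval −0.29 to −0.02, edgeR adjusted p = 0.233).

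Among the phosphodiesterase genes, the inhibitory subunit differed and the catalytic subunits did not pass. *Pde6g* had 278, 279 and 243 CPM in spironolactone replicates and 362, 389.96 and 304 CPM in non-loaded replicates, without overlap (log2 fold change −0.40 ± 0.08, edgeR adjusted p = 0.0117). The call was lost without non-loaded replicate 1 (adjusted p = 0.066) or 2 (0.0765) and without spironolactone replicate 2 (0.0644) or 3 (0.0645). *Pde6a* ranged from 4482 to 4595 CPM in spironolactone and from 4423 to 5028 CPM in non-loaded libraries (−0.08 ± 0.06, edgeR adjusted p = 0.604). *Pde6b* ranged from 1923 to 2136 and from 2079 to 2241 CPM (−0.10 ± 0.06, edgeR adjusted p = 0.472). For both catalytic genes the groups overlapped. The 95% interval of the log2 fold change was −0.21 to 0.05 for *Pde6a* and −0.22 to 0.03 for *Pde6b*, which correspond to a lower bound of 0.867 of the non-loaded level for *Pde6a* and 0.857 for *Pde6b*.

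For the channel, the gene of the modulatory subunit was lower. The counts of this gene pool 3 transcripts, and which of them fell was not tested. *Cngb1*, whose locus also yields the glutamic-acid-rich GARP proteins, had 678, 689 and 614 CPM in spironolactone replicates and 871, 823 and 729 CPM in non-loaded replicates. The groups did not overlap (log2 fold change −0.29 ± 0.07, edgeR adjusted p = 0.033), and the call was lost without non-loaded replicate 1 (adjusted p = 0.183) or 2 (0.122) and without spironolactone replicate 2 (0.112) or 3 (0.145). *Cnga1*, the subunit that can form a cGMP-gated channel on its own, ranged from 709 to 736 CPM in spironolactone and from 717 to 808 CPM in non-loaded libraries (−0.10 ± 0.06, edgeR adjusted p = 0.461). *Slc24a1* ranged from 1637 to 1779 and from 1667 to 2044 CPM (−0.16 ± 0.07, adjusted p = 0.309, and 0.0362 at −0.25 without non-loaded replicate 3). Both overlapped between the groups.

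The libraries of a group did not stand at the same distance. Non-loaded replicate 3 was below its group's mean log2 CPM for 9 of 9 members, non-loaded replicate 1 for 2 and replicate 2 for 0. Each spironolactone library was below that mean for 9 of 9. Averaged over the members, the distance from the non-loaded mean was −0.25, −0.22 and −0.33 in spironolactone replicates 1, 2 and 3 and 0.06, 0.09 and −0.15 in non-loaded replicates 1, 2 and 3 (log2). Without non-loaded replicate 3, 5 members were called lower. Leaving out non-loaded replicate 1 or 2, or spironolactone replicate 3, left 2 members called lower, and leaving out spironolactone replicate 2 left 1. With limma on log2(TPM + 1), 1 member, *Gnat1*, passed (adjusted p = 0.0464), and *Gnb1* (adjusted p = 0.102), *Pde6g* (0.117) and *Cngb1* (0.101) did not. Spironolactone samples are numbered 8, 10 and 11 in their titles, and non-loaded samples 2, 3 and 4. With that number in the edgeR model 0 members and 0 genes passed (562 genes at an unadjusted p below 0.05), *Gnat1* gave −0.25 and *Gnb1*, *Pde6g* and *Cngb1* turned positive. The number follows the group, so the contribution of each cannot be told apart.

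**Figure D2:**
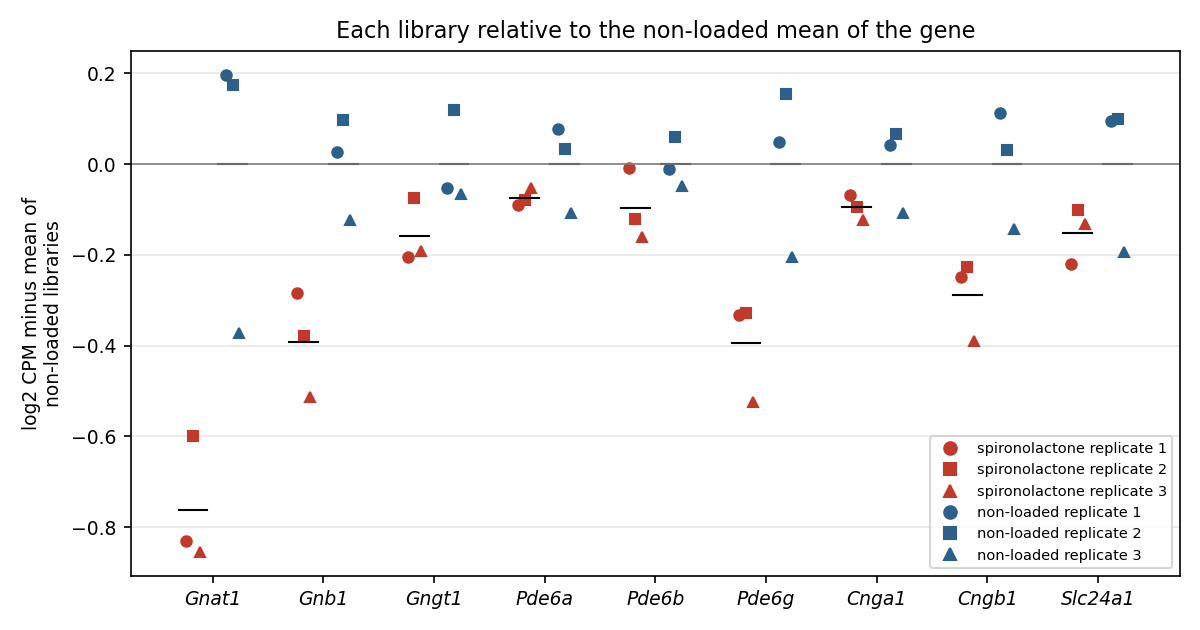
Log2 CPM of each gene in each library minus the mean of the 3 non-loaded libraries, with spironolactone libraries in red and non-loaded libraries in blue. Symbols mark the replicates and bars the group means; non-loaded replicate 3 (blue triangle) lies below 0 for every gene and *Gnat1* shows the widest gap.

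Correlated with the mean of the other 8 members over the 6 libraries, the members gave a Pearson r of log2 CPM between 0.77 (*Pde6b*) and 0.99 (*Pde6g*). With the group means removed, r lay between 0.54 (*Pde6b*) and 0.96 (*Cnga1*). The points share library and scaling, and these values are a description. By the same measure the genes most like the member mean among non-members were *Ndufa4* (r = 0.999), *L3mbtl1* (0.993), *Rfc5* (0.993), *Smarcd1* (0.989) and *Mettl10* (0.988). Of these, *Ndufa4* (120.7 ± 5.62 CPM in spironolactone and 162 ± 23.8 in non-loaded libraries, edgeR adjusted p = 0.0114) and *Smarcd1* (475 ± 15.9 and 619 ± 64.8 CPM, adjusted p = 0.00556) were called lower, and the other 3 were not.

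Levels per length, as TPM (transcript abundance corrected for length and library size), put transducin first, the phosphodiesterase next and the channel and exchanger last. In spironolactone libraries the order was *Gngt1* (9485 ± 259.96 TPM, SD, n = 3), *Gnat1* (5333 ± 458), *Gnb1* (4663 ± 447), *Pde6g* (4484 ± 397), *Pde6a* (2099.9 ± 38.0), *Pde6b* (1409 ± 106), *Cnga1* (698 ± 26.6), *Cngb1* (551 ± 36.9) and *Slc24a1* (547 ± 11.97). The order was the same in non-loaded libraries, where *Gngt1* had 10521 ± 545 TPM, *Gnat1* 9025 ± 1718, *Gnb1* 6035 ± 319, *Pde6g* 5962 ± 646, *Pde6a* 2183 ± 116, *Pde6b* 1485 ± 18.1, *Cnga1* 737 ± 31.7, *Cngb1* 675 ± 41.0 and *Slc24a1* 601 ± 56.1. Ranges of neighbours in this order overlapped between *Gnb1* and *Pde6g* and between *Cngb1* and *Slc24a1* in both groups, between *Gnat1* and *Gnb1* in spironolactone libraries, and between *Gngt1* and *Gnat1* and between *Cnga1* and *Cngb1* in non-loaded libraries. *Gnat1* was the 12th gene by TPM in all 3 spironolactone libraries and between the 8th and the 11th in non-loaded libraries. The TPM of *Pde6g* rests on a short gene model of 264 bases with an effective length of 105 to 113 bases, and so depends more on the assumed length than the other levels. *Cngb1* has 3 transcripts in the tables, and its abundance-weighted length was 2344 to 2354 bases in spironolactone and 2279 to 2353 in non-loaded libraries; the other 8 members had 1 length in all libraries.

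**Figure D3:**
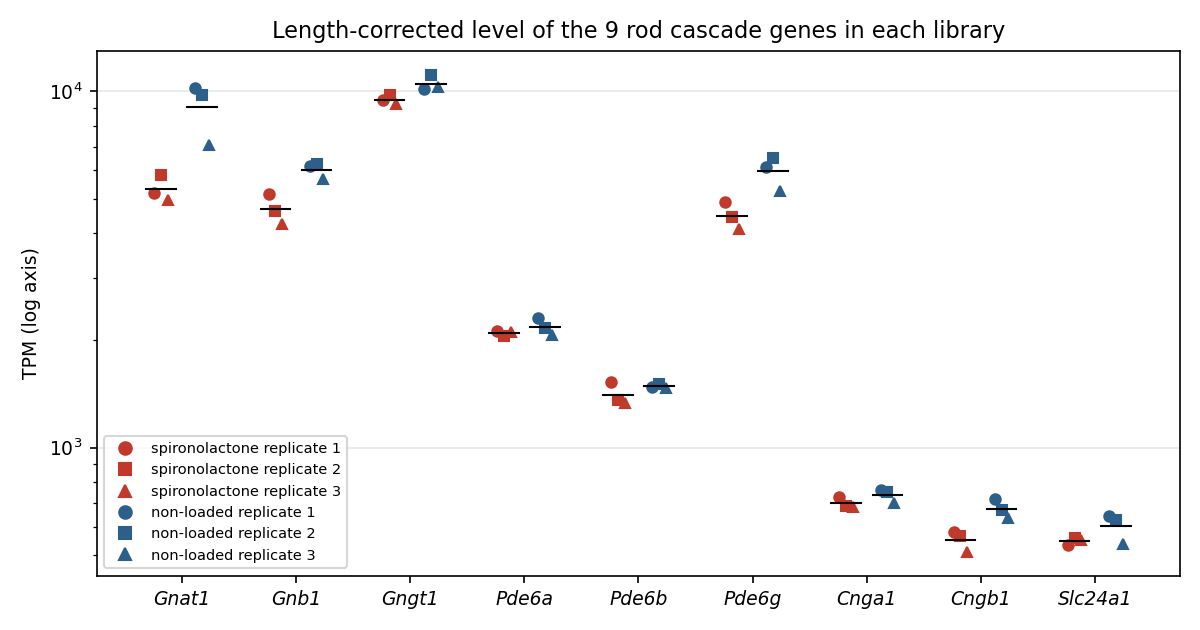
TPM of the 9 genes in each library on a log axis, with spironolactone libraries in red to the left of non-loaded libraries in blue. Bars are group means of 3 libraries; the lowest value among the transducin genes and *Pde6g* is 4108 TPM and the highest among the channel and exchanger genes is 759 TPM.

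Partners of one complex were compared within each library as a ratio of TPM, which no scaling of the library can change. Of 8 ratios, 5 did not overlap between the groups. Each of these had p = 0.1 (exact two-sided permutation test), the smallest p that 3 against 3 samples allow, and 0.16 after Benjamini-Hochberg adjustment over the 8, so none passed. *Gnat1* to *Gngt1* was 0.548, 0.5996 and 0.537 in spironolactone replicates and 1.01, 0.877 and 0.688 in non-loaded replicates, a log2 difference of −0.59. *Gngt1* to *Gnb1* was higher with spironolactone, at 2.04 ± 0.17 against 1.75 ± 0.08 (SD, n = 3 each). *Pde6g* to *Pde6b* was 3.18 ± 0.10 in spironolactone and 4.01 ± 0.40 in non-loaded libraries, and *Pde6g* to *Pde6a* was 2.14 ± 0.18 and 2.73 ± 0.24. *Cnga1* to *Cngb1* was 1.254, 1.217 and 1.334 in spironolactone and 1.058, 1.120 and 1.100 in non-loaded replicates. The catalytic pair *Pde6a* to *Pde6b* gave 1.495 ± 0.098 and 1.470 ± 0.080 (exact permutation p = 0.9), *Slc24a1* to *Cnga1* 0.785 ± 0.046 and 0.815 ± 0.042 (p = 0.5, exact) and *Gnat1* to *Gnb1* 1.15 ± 0.13 and 1.49 ± 0.22 (p = 0.2, exact).

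**Figure D4:**
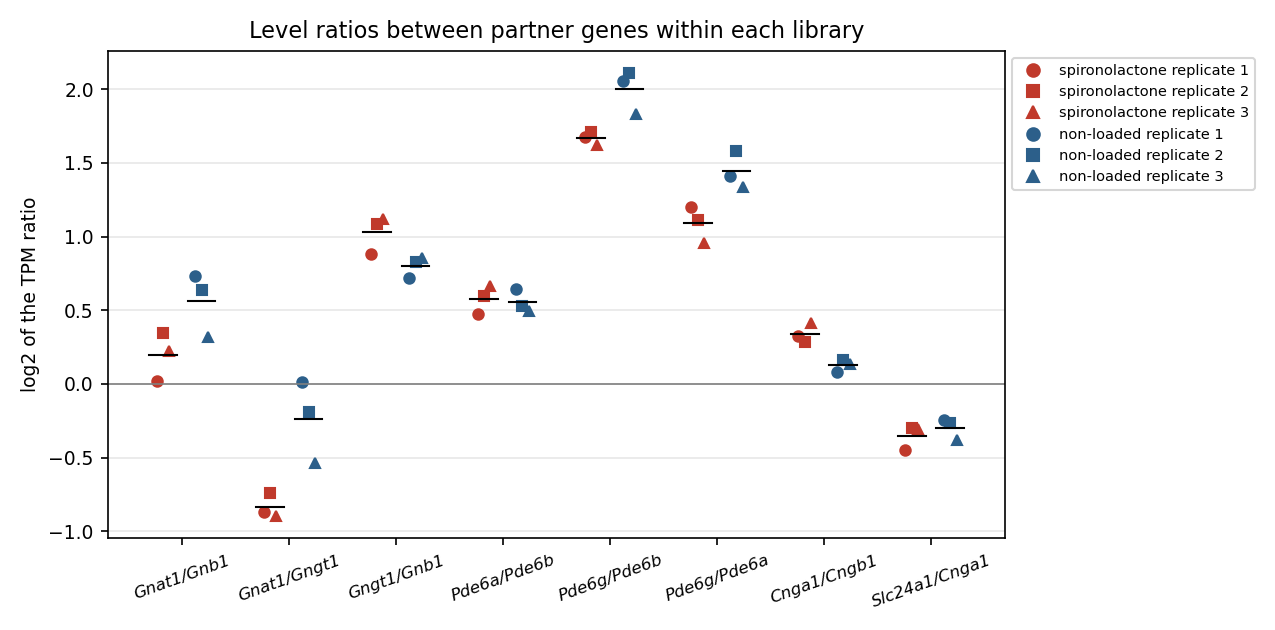
Log2 of the TPM ratio between 2 genes of the cascade in each library, spironolactone in red and non-loaded in blue, with bars at the group means. The groups separate for *Gnat1*/*Gngt1*, *Gngt1*/*Gnb1*, *Pde6g*/*Pde6b*, *Pde6g*/*Pde6a* and *Cnga1*/*Cngb1*, and overlap for the other 3.

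Promoters are shown for *Gnb1* and *Cngb1*, which fell, beside *Pde6b* and *Cnga1*, which encode partners of subunits whose genes fell and did not pass themselves. RefSeq windows (GRCr8, 250 bases before to 50 after the start site, written in the direction of the gene) were matched for 7 of 9 members, all but *Gnat1* and *Pde6g*. Capitals mark 2 motifs searched on both strands, which do not overlap each other here. They are TAATCC, a homeobox site of the CRX/OTX type, and TGCTGA, the core of an NRL-type element. CRX and NRL are the transcription factors that drive rod genes.
Gnb1, chr5:171378113-171378412, plus strand: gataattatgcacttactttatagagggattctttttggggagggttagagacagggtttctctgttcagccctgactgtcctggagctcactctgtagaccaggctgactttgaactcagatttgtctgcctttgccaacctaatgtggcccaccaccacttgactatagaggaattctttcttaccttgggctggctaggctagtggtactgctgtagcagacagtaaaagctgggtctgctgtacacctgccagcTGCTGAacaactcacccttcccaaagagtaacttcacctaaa
Cngb1, chr19:9732396-9732695, plus strand: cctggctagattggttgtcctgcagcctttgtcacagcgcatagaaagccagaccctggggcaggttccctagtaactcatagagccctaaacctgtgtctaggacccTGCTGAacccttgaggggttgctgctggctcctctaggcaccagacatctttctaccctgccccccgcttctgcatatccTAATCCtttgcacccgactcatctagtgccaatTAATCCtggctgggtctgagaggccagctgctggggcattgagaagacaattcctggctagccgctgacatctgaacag
Pde6b, chr14:1511386-1511685, minus strand: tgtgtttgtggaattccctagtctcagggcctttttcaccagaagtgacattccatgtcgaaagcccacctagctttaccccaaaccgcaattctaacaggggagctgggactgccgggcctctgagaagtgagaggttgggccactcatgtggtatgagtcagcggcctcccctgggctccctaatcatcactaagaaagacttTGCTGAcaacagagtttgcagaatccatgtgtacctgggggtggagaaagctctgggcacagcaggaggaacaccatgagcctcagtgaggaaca
Cnga1, chr14:35920698-35920997, plus strand: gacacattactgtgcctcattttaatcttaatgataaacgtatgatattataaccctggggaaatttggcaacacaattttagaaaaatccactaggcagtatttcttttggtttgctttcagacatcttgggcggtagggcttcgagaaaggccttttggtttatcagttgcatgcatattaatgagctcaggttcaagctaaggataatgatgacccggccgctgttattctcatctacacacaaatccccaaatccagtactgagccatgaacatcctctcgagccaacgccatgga
TAATCC occurred in 3 of the 7 member windows (*Gngt1*, *Pde6a* and *Cngb1*) and in 7.17% of 33469 windows of that length. TGCTGA occurred in 3 (*Gnb1*, *Pde6b* and *Cngb1*) and in 18.4% of all windows. *Cngb1* held both, with TAATCC at −62 and −29 and TGCTGA at −142 from the start site, and 1.43% of all windows held both. In *Pde6b* the TGCTGA match began at −45 and in *Gnb1* at 9 bases after the start. *Cnga1* and *Slc24a1* held neither motif, which says no more than that these letters are absent from these windows. Both members that fell and had a window held a motif, as did *Gngt1*, *Pde6a* and *Pde6b*, which did not pass.

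Most genes of the lists related to the cascade did not pass, nor did most tested genes, of which 0.763% were called lower and 1.87% higher. These lists too were chosen with earlier results of these data known, so their counts describe them and test nothing. Of 18 tested genes for shutoff and recovery of the light response, 1 fell and 0 rose, with a median log2 fold change of −0.02. This was *Rcvrn*, the calcium sensor recoverin, which measured 802 ± 38.7 CPM in spironolactone and 1015 ± 84.8 CPM in non-loaded libraries (−0.34 ± 0.07, edgeR adjusted p = 0.00887, lost without non-loaded replicate 2 at 0.0697 and without spironolactone replicate 2 at 0.0734). The rod arrestin gene *Sag*, which is abundant in rods, measured 3581 ± 119 and 3386 ± 46.2 CPM (0.08 ± 0.06, adjusted p = 0.53), and *Pdc*, the phosducin that binds transducin beta and gamma, 2412 ± 131 and 2468 ± 107 CPM (−0.03 ± 0.06, adjusted p = 0.852).

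Genes for assembly, lipid modification and transport of the cascade proteins held 2 calls among 22 tested, both lower (median 0.00). The share called lower over all tested genes was 0.763%. *Klhl18*, an adaptor of the cullin-3 ubiquitin ligase known in mice to act on transducin movement in rods, measured 170.6 ± 19.4 CPM in spironolactone and 238 ± 9.52 CPM in non-loaded libraries (−0.48 ± 0.07, edgeR adjusted p = 0.00122). *Cetn2*, a centrin, measured 53.7 ± 5.51 and 68.3 ± 1.43 CPM (−0.35 ± 0.08, edgeR adjusted p = 0.023) and was lost without non-loaded replicate 1 (0.0838) or 2 (0.0954) and without spironolactone replicate 2 (0.159) or 3 (0.103). *Aipl1*, the chaperone of the phosphodiesterase, had 887 ± 61.5 and 1000.3 ± 38.3 CPM (−0.17 ± 0.06, adjusted p = 0.165).

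Of 11 tested cone versions of the cascade genes, 9 had a negative log2 fold change (median −0.13), against 9 of 9 members and 50.7% of tested genes. Calls numbered 0 among the 11 (edgeR, 2 at an unadjusted p below 0.05), where 2.64% of all tested genes were called in either direction. *Gngt2*, the cone transducin gamma subunit, came nearest at 16.0 ± 2.22 and 22.1 ± 1.26 CPM (−0.46 ± 0.12, edgeR adjusted p = 0.0512), followed by *Opn1mw*, the middle-wavelength cone opsin, at 37.4 ± 0.48 and 42.9 ± 4.91 CPM (−0.20 ± 0.09, adjusted p = 0.296). The cone alpha subunit *Gnat2* measured 99.8 ± 6.65 and 106 ± 3.52 CPM (−0.09 ± 0.06, adjusted p = 0.517). Related subunits outside photoreceptors had 0 calls among 16 tested (edgeR; 1 at an unadjusted p below 0.05; median −0.02), and the smallest p-values belonged to the beta subunit *Gnb2* (−0.17 ± 0.07, adjusted p = 0.191) and the inhibitory alpha subunit *Gnai1* (−0.17 ± 0.09, adjusted p = 0.359).

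Of 12 tested genes of the rod outer segment and its upkeep, 2 fell (against 0.763% of all tested genes) and 0 rose (median −0.06). These were *Reep6* (793 ± 81.1 CPM in spironolactone and 1231 ± 244 CPM in non-loaded libraries, −0.63 ± 0.11, edgeR adjusted p = 0.0034) and *Rom1*, a disc rim protein gene (−0.54 ± 0.09, adjusted p = 0.00244). *Reep6* (0.218) and *Rom1* (0.0692) did not pass with robust shrinkage.

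Transcription factors of photoreceptors went in both directions, with 3 of 18 tested higher and 2 lower (median 0.06). The shares over all tested genes were 1.87% higher and 0.763% lower. *Neurod1* (329.6 ± 31.5 and 239 ± 4.08 CPM, 0.46 ± 0.07, edgeR adjusted p = 0.000695), *Mef2c* (0.42 ± 0.07, adjusted p = 0.00177) and *Crx* (606 ± 7.60 and 511 ± 26.2 CPM, 0.25 ± 0.06, adjusted p = 0.0289) were higher. *Nr2e3*, a nuclear receptor that promotes rod genes (272 ± 46.3 and 358 ± 14.0 CPM, −0.40 ± 0.09, adjusted p = 0.0232), and *Samd7* (−0.40 ± 0.06, adjusted p = 0.00229) were lower. *Nrl* did not pass, at 387 ± 49.3 and 451 ± 28.5 CPM (−0.22 ± 0.08, edgeR adjusted p = 0.162). *Nr2e3* passed without spironolactone replicate 1 and was lost on leaving out any other library, with an adjusted p of 0.0599, 0.0954 and 0.0556 for non-loaded replicates 1, 2 and 3 and of 0.123 and 0.0618 for spironolactone replicates 2 and 3, and with robust shrinkage (0.14). *Crx* was lost without non-loaded replicate 1 (0.171) or 2 (0.135) and without spironolactone replicate 2 (0.146) or 3 (0.0645). With limma on log2(TPM + 1), *Klhl18*, *Neurod1*, *Mef2c* and *Samd7* passed among the called genes of these lists, and *Rcvrn*, *Cetn2*, *Rom1*, *Reep6*, *Nr2e3* and *Crx* did not (adjusted p between 0.0667 for *Reep6* and 0.163 for *Nr2e3*).

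**Figure D5:**
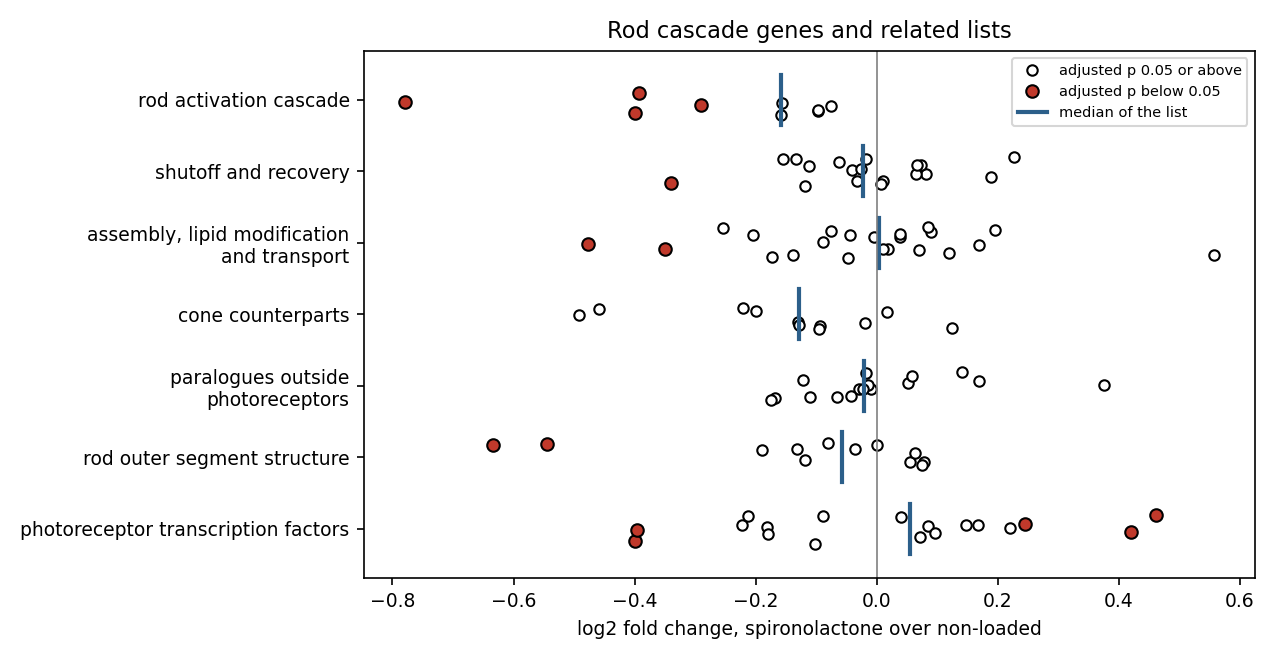
Log2 fold change, spironolactone over non-loaded, of each tested gene in the rod cascade and in 6 related lists, with filled points for an adjusted p below 0.05 and a bar at each list's median. The cascade's 9 points all lie below 0 with a median of −0.16, as do 9 of the 11 cone points with a median of −0.13. The transcription factors have calls on both sides of 0.

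Markers of other cell types were summed in each library. The pigment epithelium and the choroid lie behind the rods; of their 10 markers, 8 were tested and 0 passed (edgeR; 2 at an unadjusted p below 0.05; median log2 fold change −0.41). Their summed level was 123.8, 108 and 63.8 CPM in spironolactone replicates 1, 2 and 3 and 131, 138 and 114 CPM in non-loaded replicates, so that the groups overlapped and spironolactone replicate 3 was the lowest library. Astrocyte markers summed to 147 to 172 CPM in spironolactone and to 189.6 to 197 CPM in non-loaded libraries, and endothelial and pericyte markers to 81.7 to 91.7 and 94.99 to 98.9 CPM, both without overlap. Among single tested genes, 9.46% had all spironolactone libraries below all non-loaded libraries, and 11.4% had them above. No such share was computed for sums of several markers, which can separate at another rate. Of 2 tested astrocyte markers *Gfap* was called lower (93.5 ± 11.3 and 123 ± 2.30 CPM, −0.40 ± 0.07, edgeR adjusted p = 0.00654), and 0 of 5 endothelial and pericyte markers were (edgeR; 0 at an unadjusted p below 0.05). Sums of cone, bipolar, amacrine and horizontal, ganglion, Müller glia, microglia and erythrocyte markers overlapped between the groups. The part of any of these in the results for the 9 genes was not tested.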

How the data were processed

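Neuroretinal RNA of 6 rat samples was sequenced from libraries of a stranded mRNA kit, per the labels' protocols. The submitters' processing notes name RSEM 1.2.28, STAR 2.5.3a, Trimmomatic, FastQC and rn6, without roles; the annotation and the strand option were not given in these sources. Without strand in the counting, overlapping antisense genes could not be separated. The authors deposited expected counts per gene, unnormalised (RSEM divides reads that match several genes), beside TPM, FPKM and gene lengths, per the file headers. Of 28358 rows, 3 named for an annotation source and not a gene (0.102% to 0.107% of counts) were left out.

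Expected counts were rounded, filtered with filterByExpr (at least 99.9% of counts kept), scaled by TMM and compared with edgeR 4.0.16 under R 4.3.3 (two-sided quasi-likelihood F-test from glmQLFit and glmQLFTest), adjusting p over 13241 genes by Benjamini-Hochberg. SE is the log2 fold change over the root of F, and 95% intervals use the moderated degrees of freedom. Groups came from the labelled treatment, and no batch was labelled. CPM are means ± SD of 3 libraries. TPM served for levels and ratios and, with limma 3.58.1, in alternatives; FPKM and DESeq2 1.42.0 served in alternatives.

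Members and lists were chosen with earlier results of these data known, and 2 listed genes are not reported here and were left out of list counts and medians. Named were all members, called genes of each list (or the 2 with the smallest p where a list had none), and 5 genes most correlated with the member mean. These 5 came from genes with a mean log2 CPM of at least 3 whose symbol is no locus or clone name. *Sema3f*, *Sag*, *Pdc*, *Aipl1*, *Gnat2*, *Nrl* and *Gfap* were named after their values were seen.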

Additional observations from a re-analysis of the deposited data

How the results depend on the processing

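The signs of all 9 members were kept under 14 alternatives of scaling, tool, filter, length, pseudocount and threshold, under the 2 added after seeing the data (the 3 rows without a gene kept, and *Gnat1* summed with *Sema3f*), and with each library left out. Among these alternatives, robust shrinkage and the threshold of 0.1 keep the fold changes of the reported test, so their signs could not change. TMM factors from genes outside the rod and cone lists left 4 members lower.

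Counts of genes called lower and higher were 101 and 248 in the reported test, 164 and 440 without a filter, 18 and 82 on log2(TPM + 1), 16 and 79 on log2(TPM + 0.1), and 173 and 416 at a threshold of 0.1. On both TPM scales 1 member was lower. Leaving out a library gave 30 to 209 genes lower, 81 to 396 higher and 1 to 5 members lower. Without non-loaded replicate 1 there were 37 lower and 87 higher genes, without its replicate 2 there were 44 and 113; leaving out spironolactone replicate 1 gave 209 and 396, replicate 2 gave 30 and 81, and replicate 3 gave 41 and 105; the cause was not tested.

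With the title number as a covariate 0 genes were lower, 0 higher and 0 members lower (edgeR, the only tool run with it; 562 genes at an unadjusted p below 0.05). Log2 fold changes that turned round were 0.092 for *Gnb1*, 0.057 for *Pde6a*, 0.18 for *Pde6b*, 0.11 for *Pde6g*, 0.13 for *Cnga1*, 0.15 for *Cngb1*, 0.078 for *Klhl18*, 0.080 for *Cetn2*, 0.30 for *Rom1*, 0.23 for *Nr2e3* and −0.047 for *Mef2c*, with SE of 0.173 to 0.247; the number follows the group and the cause was not tested. Of the 8 ratios, none of which this design could carry past 0.05, 7 kept their direction; *Pde6a* to *Pde6b* ranged between −0.02 and 0.08 (log2) over the libraries left out. The replicate numbers 1, 2 and 3 used here follow the order of the title numbers within each group and pair no samples. No paired analysis was possible because the labels give the groups no shared replicate numbers.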
